A study of Sus scrofa with 6 samples.

Results

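The cells described here are MAG-positive cells of the oligodendrocyte lineage in porcine midbrain-like organoids (pMLOs). A cell was taken when it held at least 2000 unique molecular identifiers (UMIs, each marking 1 captured mRNA molecule) and at most 7000 detected genes, at least 1 UMI of MAG, at least 2 of MBP, at least 1 of SOX10, OLIG1 or OLIG2, and fewer than 3 of the neuronal gene STMN2. This gave 872 cells among 41956 cells of the day 28 (D28) and day 45 (D45) libraries that met the limits on UMIs and detected genes (eligible cells), and among 104820 barcodes of the whole series. The organoids were grown from 1 porcine embryonic stem cell line, IVF_1_pESC_FIW, which was derived from an embryo made by in vitro fertilization. They were patterned toward the ventral midbrain with SB431542, Noggin, SHH, CHIR99021 and FGF8, and sampled on day 11 (D11), D28 and D45. Before D28 the organoids were moved to a terminal differentiation medium with BDNF, GDNF, ascorbic acid, db-cAMP and DAPT. The effect of this medium on the levels given here was not tested. Each day has a pair of libraries, called replicates A and B, described as biological duplicates, so all values come from a single genetic background. Every sample is labelled as midbrain dopaminergic neurons, but the MAG-positive cells held TH, the gene of the enzyme that limits dopamine synthesis, at 0, 1.65 and 6.28 counts per 1000000 UMIs of the summed cells (CPM) in D28 replicate B, D45 replicate A and D45 replicate B. The cells were chosen by their counts of MAG, MBP, SOX10, OLIG1, OLIG2 and STMN2, so the values of these 6 genes are a description and were not tested.

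Oligodendrocytes wrap axons in myelin, a stack of membrane rich in cholesterol and galactolipids that speeds conduction. They arise from dividing precursors that carry the PDGF receptor encoded by PDGFRA, pass through a committed stage marked by the receptor GPR17 and the protein BCAS1, and then switch on myelin genes. MAG (myelin-associated glycoprotein) sits on the inner myelin membrane that faces the axon, MBP (myelin basic protein) holds the cytoplasmic faces of the myelin membrane together, and MOG (myelin oligodendrocyte glycoprotein) appears on the outermost layer late in differentiation. SOX10, with OLIG1 and OLIG2, is a transcription factor that keeps the lineage and drives myelin genes together with MYRF.

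In the RefSeq annotation of Sscrofa11.1, the build of the files, MAG lies on chromosome 6 from 44794197 to 44809933, MBP on chromosome 1 from 147649516 to 147685289 and MOG on chromosome 7 from 22595565 to 22606137, all on the plus strand. The 250 bases before and the first 50 bases of each of these genes are shown because the first 2 genes define the cells and the last one grades them. The MOG model is marked as partial at its far end in the annotation, away from the window shown. The annotated MOG gene begins with the bases ATG, so its start may be a coding start and not that of a transcript. The CAGCTG from base 280 of its window may then lie in coding sequence. The bases before the annotated start of MBP are not only upstream sequence. The MBP locus also gives longer transcripts, known as Golli, that begin farther upstream and use sequence just before this start as a coding exon, and 1 of the 3 forward reading frames of the MBP window holds no stop codon, so the matches marked there may lie in an exon. Capitals mark every match, on either strand, to the SOX motifs ACAAAG and ACAATG, the E-box CAGCTG that OLIG factors can bind, and the MYRF motifs CTGGCAC and CTGGTAC.
MAG, chr6:44793947-44794246, plus strand: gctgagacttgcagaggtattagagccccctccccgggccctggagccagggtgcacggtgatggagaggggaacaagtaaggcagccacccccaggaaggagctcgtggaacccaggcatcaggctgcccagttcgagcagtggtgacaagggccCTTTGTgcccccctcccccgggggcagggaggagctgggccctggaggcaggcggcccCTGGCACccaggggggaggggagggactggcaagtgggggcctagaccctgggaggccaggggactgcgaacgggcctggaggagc
MBP, chr1:147649266-147649565, plus strand: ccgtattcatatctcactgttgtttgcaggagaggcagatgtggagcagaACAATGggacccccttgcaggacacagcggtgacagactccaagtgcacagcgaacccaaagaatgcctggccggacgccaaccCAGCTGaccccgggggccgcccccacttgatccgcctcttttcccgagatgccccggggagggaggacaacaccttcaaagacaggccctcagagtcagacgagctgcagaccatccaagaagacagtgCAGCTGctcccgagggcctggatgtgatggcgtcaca
MOG, chr7:22595315-22595614, plus strand: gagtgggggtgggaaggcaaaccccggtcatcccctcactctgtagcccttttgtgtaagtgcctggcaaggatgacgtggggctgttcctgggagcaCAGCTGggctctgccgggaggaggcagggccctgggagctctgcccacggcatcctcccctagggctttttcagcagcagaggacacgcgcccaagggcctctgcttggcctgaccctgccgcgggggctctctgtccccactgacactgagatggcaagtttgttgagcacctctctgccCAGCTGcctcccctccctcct
The MAG window held ACAAAG on the minus strand, read as CTTTGT from base 157 of the window, and CTGGCAC from base 215. The MBP window held ACAATG from base 51 and CAGCTG from bases 135 and 264, and the MOG window held CAGCTG from bases 99 and 280. None of these motifs overlapped another. Among 19337 windows of the same length at protein-coding genes, 21.2% held ACAAAG or ACAATG, 16.6% held CAGCTG and 6.74% held CTGGCAC or CTGGTAC, so such matches are common. A match is a description of the sequence only, since a 3′ library measures transcripts and not binding.

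MAG-positive cells were seen in 3 of the 6 libraries, and most of them came from D45. D28 replicate A held 0 of 9240 eligible cells, which allows a share of up to 0.0325%, whereas D28 replicate B held 45 of 11070, or 0.407% (exact binomial 95% interval 0.297 to 0.544). D45 replicate A held 431 of 10506 (4.10%, 3.73 to 4.499) and D45 replicate B held 396 of 11140 (3.55%, 3.22 to 3.92). On D11 the same rule found 0 of 13048 and 0 of 14675 cells, which allows up to 0.023% and 0.0204%. The D45 libraries therefore stood above both D28 libraries without overlap, while the D28 libraries differed from each other beyond counting error.

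The mean share was 3.83% ± 0.387 (SD, n = 2 libraries) on D45 and 0.203% ± 0.287 on D28, a difference of 3.63 percentage points. In the exact two-sided permutation test this gave p = 0.33, which is the smallest value that 2 libraries against 2 allow. The rule depends on depth, because a deeper cell is more likely to show 1 MAG UMI. When every eligible cell was thinned to 2000 UMIs and the rule was applied again, 0, 10, 196 and 206 cells met it in D28 replicates A and B and D45 replicates A and B, or 0, 0.0903, 1.87 and 1.85% of the eligible cells. Thinning lowers STMN2 as well, so these cells need not all be among the 872. The day difference was then 1.81 percentage points, and it was 1.94 points with all barcodes as the denominator. The order of the days was the same at equal depth, and the D45 libraries then differed from each other by less than their counting error.

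**Figure D1:**
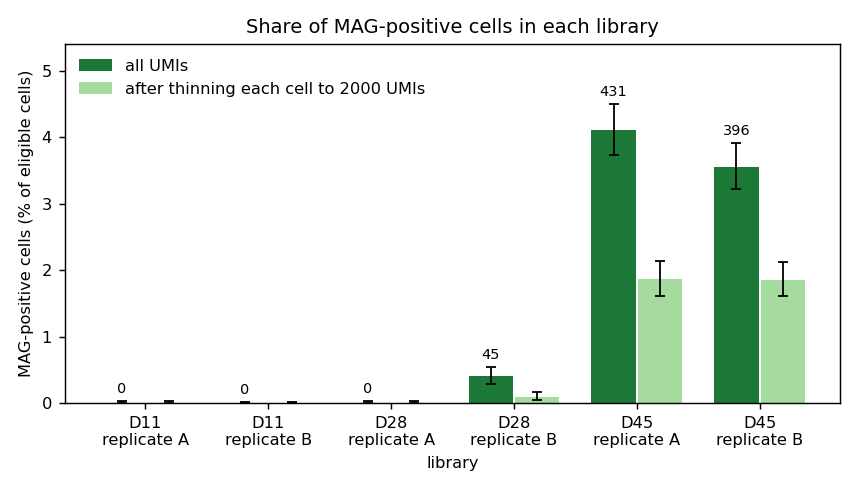
Share of MAG-positive cells among eligible cells (vertical axis, percent) in each of the 6 libraries, with all UMIs (dark bars) and after thinning each cell to 2000 UMIs (light bars). Lines are exact binomial 95% intervals, which cover counting error only, and the numbers are cells; the D45 libraries stand at 4.10 and 3.55%, D28 replicate B at 0.407% and the other libraries at 0.

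The background of myelin genes was gauged in neurons, which should lack them. How far this background is free RNA was not tested. Neurons were taken as eligible cells with at least 10 STMN2 UMIs. A MAG UMI was found in 0.0253 and 0.204% of them in D28 replicates A and B and in 3.89 and 3.55% in D45 replicates A and B, at medians of 7659, 8932, 10381.5 and 9184 UMIs per cell. A MOG UMI was found in 0.456, 0.407, 2.00 and 1.93% of the same neurons. In the MAG-positive cells MOG was detected in 24.4, 71.9 and 71.7% of cells in D28 replicate B and D45 replicates A and B, at medians of 10347, 13589 and 11695 UMIs, so MOG detection lay above this background in each library. It was 6.67, 34.3 and 36.4% after thinning to 2000 UMIs. Of all eligible cells with a MAG UMI, the rule kept 45 of 75 in D28 replicate B, 431 of 840 in D45 replicate A and 396 of 840 in D45 replicate B, and 0 of 8 in D28 replicate A.

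The genes of the rule were themselves unevenly present. The median MAG-positive cell held 3, 10 and 8 MAG UMIs and 40, 65 and 50 MBP UMIs in D28 replicate B, D45 replicate A and D45 replicate B, and single cells reached 14, 130 and 151 MAG UMIs. SOX10 was found in 45 of 45, 427 of 431 and 392 of 396 cells. OLIG1 was found in 14, 98 and 110 of them and OLIG2 in 11, 53 and 90, so the lineage was called on SOX10 without either OLIG gene in 23, 297 and 230 cells.

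Cells just inside and just outside the limits were also compared, with no test. MAG-positive cells with exactly 1 MAG UMI numbered 12, 49 and 48 in D28 replicate B, D45 replicate A and D45 replicate B, and had MOG at 8.78, 33.5 and 38.4 CPM. Cells that met all but the MAG criterion, with 0 MAG UMIs, numbered 54, 114 and 156 and had MOG at 6.79, 16.9 and 8.43 CPM, below the cells with 1 MAG UMI in both D45 libraries, while the value of the 12 cells of D28 replicate B rests on 1 MOG UMI. STMN2 was the criterion that removed many cells with high myelin genes: 5, 122 and 97 cells missed on STMN2 alone, with MOG at 107, 289 and 349 CPM and the synaptic gene SNAP25 at 161, 91.5 and 82.9 CPM. The MAG-positive cells themselves held SNAP25 at 8.48, 14.1 and 18 CPM. Of the MAG-positive cells, 0, 19 and 19 were called as doublets by a score from simulated doublets (0, 4.41 and 4.8%, against 3.32 to 4.31% of the other eligible cells in the 4 libraries of D28 and D45). No barcode was MAG-positive in more than 1 library, and between 55 and 119 barcodes were shared by each pair of libraries.

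The markers agreed in part with a myelinating stage. CLDN11, which forms the tight junctions of myelin, was at 1702, 2673 and 2346 CPM in MAG-positive cells and at 6.6, 64.5 and 46.1 in the other eligible cells of D28 replicate B, D45 replicate A and D45 replicate B. UGT8, which makes the galactolipids of myelin, was at 731, 1217 and 1065 against 4.08, 34.7 and 26.9 CPM. For both genes every MAG-positive value lay above every other value, which was a condition of the ranking of largest rises in which both stand. Among genes of late or fully myelinating cells, MAL was at 0, 11.6 and 22.2 CPM, OPALIN at 0, 5.29 and 4.39, ERMN at 0, 12.2 and 13, KLK6 at 0, 1.98 and 1.47 and ASPA at 0, 1.32 and 0. MOG was at 42.4, 361 and 374 CPM and the myelin gene CNP at 1077, 952 and 838. MAL, OPALIN, ERMN, KLK6 and ASPA stood at 0 in D28 replicate B, whose MAG-positive cells held 471783 UMIs in all, so that 3 UMIs are worth 6.359 CPM there. At the same time GPR17 and BCAS1, genes of committed cells that have not yet myelinated, were at 848, 274 and 417 CPM and 2590.2, 3157 and 3427 CPM. Some of the late genes were nevertheless higher than in other cells: MAL stood at 0.439, 2.63 and 4.67 CPM there (log2 fold change 2.43, SE 0.27), ERMN at 1.46, 1.36 and 4.26 (2.48, SE 0.40) and OPALIN at 0.48, 0.443 and 0.32 (3.73, SE 0.42), and all 3 passed the test described below. ASPA did not pass (0.12, SE 0.84) and KLK6 was too low to be tested. With GPR17 and BCAS1 detected beside the myelin genes, the cells are called MAG-positive here and are given no stage.

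The summed markers of most other cell types were lower in MAG-positive cells than in other cells. The sum of the 10 Schwann cell markers in the files, which would mark peripheral myelin, was 21.1 to 30.3 CPM in MAG-positive cells and 39.4 to 55.5 CPM in other cells. In the test described below 4 of these 10 fell, 1 rose and 5 did not pass, beside 28.2% lower and 16.9% higher of all genes tested. The 15 neuron markers summed to 602 to 627 CPM against 2036 to 2358 CPM, and GAD1, SLC32A1 and TH were at 0 in D28 replicate B. The 6 fibroblast markers summed to 17, 50.8 and 152 CPM against 401, 951 and 2583 CPM, in the same order of libraries. The 12 floor plate and radial glia markers summed to 541, 637 and 964 CPM against 5797, 5747 and 7114 CPM. The 10 microglia markers summed to 102, 39.5 and 35.1 CPM against 31.8, 27.7 and 25.4 CPM. Most of this was PTPRC, a marker of blood-derived cells, at 97.5, 37 and 31 against 24.7, 18.8 and 18.9 CPM (1.36, SE 0.20), the 1 of 4 tested genes of this list that rose while 0 fell, with TREM2, C1QB, C1QC and TYROBP at 0 in every library and CSF1R and AIF1 at most 0.496 CPM. The median log2 fold change of the 4 was -1.135, so the higher sum is that of PTPRC. The part of free RNA in these values was not tested.

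The first comparison set MAG-positive cells against all other eligible cells of the same library. Of 19005 genes tested in the 3 libraries with MAG-positive cells, 3208 were higher (16.9%) and 5350 lower (28.2%) in MAG-positive cells (edgeR's quasi-likelihood test on UMIs summed per library and cell set, library as a block, Benjamini-Hochberg adjusted p under 0.05). These counts depended on the D45 libraries. Without D45 replicate A they were 1584 and 3243, and without D45 replicate B 1966 and 3276. The median log2 fold change over all genes tested was -0.19. The median share of mitochondrial UMIs was 1.76, 1.47 and 1.63% in MAG-positive cells and 0.83, 0.679 and 1.16% in other cells of D28 replicate B, D45 replicate A and D45 replicate B, and its part in these differences was not tested.

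Of the 28 genes of compact myelin and the myelin membrane that were tested, 23 rose in MAG-positive cells and 2 fell, with a median log2 fold change of 3.10. MAG and MBP chose the cells, so a rise of genes that go with them follows in part from the selection. MOG stood at 42.4, 361 and 374 CPM in MAG-positive cells and 0.334, 7.42 and 6.08 in other cells, a log2 fold change of 6.22 (SE 0.24). TMEM125, a membrane protein gene, showed one of the 10 largest rises, at 10.6, 52.6 and 55.7 against 0.0163, 0.713 and 0.684 CPM (log2 fold change 6.66, SE 0.28). CLDN11 rose by 6.51 (SE 0.40) and UGT8 by 6.13 (SE 0.36) (adjusted p = 1.7e-08 and 1.2e-08). MAG-positive and other cells did not overlap for MOG, TMEM125, CLDN11 or UGT8, which all stood among the 10 largest rises, where this was a condition. MOG and TMEM125 in D28 replicate B were far below their D45 level.

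Other genes rose as well. ZNF488, a transcriptional repressor that works with OLIG2, was at 131, 164 and 162 CPM against 0.415, 4.47 and 3.09 (log2 fold change 6.34, SE 0.40). HAPLN2, a link protein of the matrix at nodes of Ranvier, was at 82.7, 42.8 and 48.8 against 0.382, 1.19 and 1.15 CPM (6.04, SE 0.34), and the kinase gene SGK2 was at 91.1, 106 and 121 against 0.301, 2.65 and 2.08 CPM (6.36, SE 0.36). NFASC, an adhesion protein of the node and paranode, was at 3249, 3039 and 2558 against 153, 243 and 179 CPM (4.17, SE 0.15). All of these passed the test, and each lay above the other cells in every library. ZNF488, HAPLN2 and SGK2 stood among the 10 largest rises, where both were conditions. Over all 19005 genes tested 2204 lay above the other cells without overlap and 8052 below. Among 13 tested genes of premyelinating and newly committed cells 11 rose and 2 fell, with a median of 2.78.

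Markers of other cell types mostly fell. The limit on STMN2 kept neurons out of the MAG-positive cells but not out of the other cells, so a fall of neuron genes follows in part from the selection. Of 15 neuron genes 13 fell and 1 rose, of 10 astrocyte genes 8 fell and 1 rose, and all 12 floor plate and radial glia genes and all 6 fibroblast genes fell. The riser among neuron genes was ELAVL3, an RNA-binding protein gene, at 138, 184 and 164 against 101, 113 and 82.6 CPM (0.95, SE 0.17), and among astrocyte genes it was S100A1, a calcium-binding protein gene, at 178, 117 and 89.1 against 7.05, 38.9 and 59.1 CPM (2.29, SE 0.48). VIM, the intermediate filament gene of radial glia, was at 301, 494 and 747 against 3834, 4762 and 6012 CPM (-3.10, SE 0.16). All 9 cell cycle genes fell too. The largest falls among named genes included the neuropeptide gene NPVF, the receptor gene ADGRV1 and the forebrain factor SIX3, at log2 fold changes of -5.82, -4.36 and -4.90.

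Genes of cholesterol synthesis and uptake moved in both directions. Of 21 tested 10 fell and 2 rose, with a median of -0.55, beside 28.2% lower and 16.9% higher of all genes tested. HMGCS1, an early enzyme of the pathway, was at 125, 72.8 and 59.8 CPM against 148, 242 and 188 (-1.07, SE 0.22), and SQLE, which makes squalene epoxide, at 138, 114 and 102 against 208, 404 and 249 (-1.07, SE 0.18). TM7SF2, a sterol reductase gene, rose, at 108, 45.1 and 43.5 against 46.4, 27.3 and 30 CPM (1.01, SE 0.16). A pair of galactolipid genes rose: FA2H, which hydroxylates fatty acids for myelin lipids, was at 19.1, 24 and 28.2 against 0.643, 1.96 and 1.97 CPM (4.12, SE 0.24) and GAL3ST1, which sulfates galactolipids, at 197, 110.3 and 119.5 against 3.8, 9.37 and 8.62 CPM (4.46, SE 0.30).

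The second comparison stayed within the lineage. MAG-negative lineage cells were eligible cells with SOX10, with OLIG1 or OLIG2, with 0 MAG UMIs and with fewer than 3 STMN2 UMIs, and they numbered 153, 370 and 487 in D28 replicate B, D45 replicate A and D45 replicate B and 0 in D28 replicate A. Their median depth of 12050, 13145 and 12236 UMIs was close to that of MAG-positive cells. Their median share of mitochondrial UMIs was 2.36, 2.14 and 2.19%, above the MAG-positive cells of each library (1.76, 1.47 and 1.63%), and its part in the differences that follow was not tested. OLIG1 was found in 97.7 to 98.0% of them and in 22.7 to 31.1% of MAG-positive cells, and only the MAG-negative definition required an OLIG gene. PDGFRA, which neither definition used, was found in 78.4, 82.4 and 78.9% of MAG-negative lineage cells and in 5 of 45, 22 of 431 and 23 of 396 MAG-positive cells, so most MAG-negative cells carried this precursor gene. Of 12664 genes tested, 2477 were higher (19.6%) and 3251 lower (25.7%) in MAG-positive cells. Without D45 replicate A these counts were 1300 and 1778, and without D45 replicate B 1114 and 1613.

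**Figure D2:**
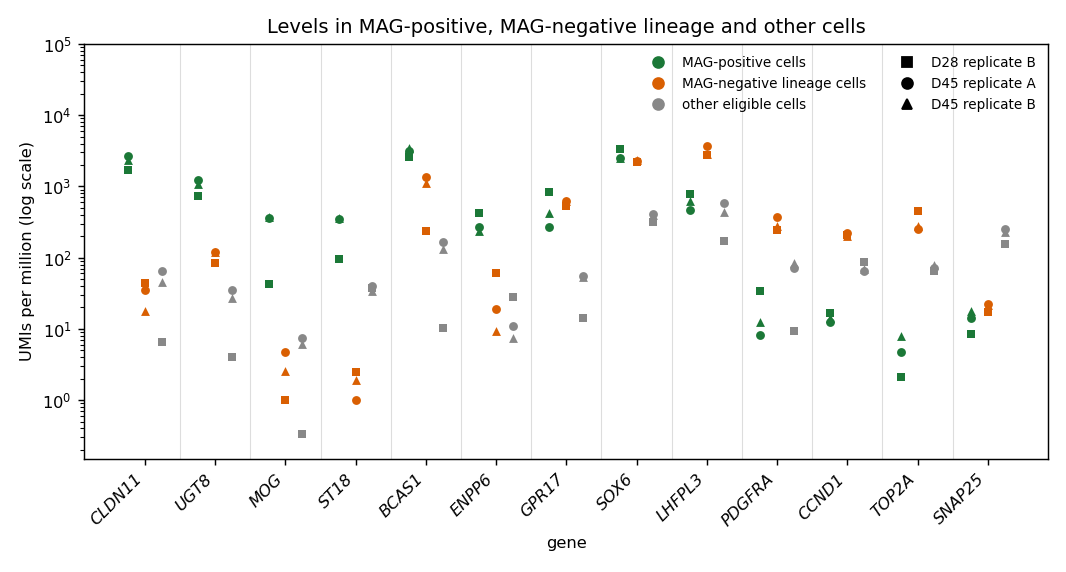
Level of 13 genes (vertical axis, CPM on a log scale) in MAG-positive cells (green), MAG-negative lineage cells (orange) and other eligible cells (grey) of D28 replicate B (squares), D45 replicate A (circles) and D45 replicate B (triangles). CLDN11, UGT8, MOG and ST18 lie highest in MAG-positive cells of every library, PDGFRA, CCND1 and TOP2A highest in MAG-negative lineage cells, and GPR17 overlaps between these 2 sets.

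Most myelin genes rose within the lineage. MAG-positive cells had to hold MAG and MBP and MAG-negative cells 0 MAG UMIs. A rise of genes that go with MAG and MBP therefore follows in part from the selection. Of 24 genes of compact myelin and the myelin membrane 16 rose and 4 fell, with a median log2 fold change of 2.09 against -0.06 over all genes tested. MOG was at 42.4, 361 and 374 CPM in MAG-positive and 1, 4.74 and 2.55 in MAG-negative cells of D28 replicate B, D45 replicate A and D45 replicate B, a log2 fold change of 6.68 (SE 0.23) with adjusted p = 2.5e-06. CLDN11 was at 1702, 2673 and 2346 against 44, 34.8 and 17.7 CPM (6.29, SE 0.32, adjusted p = 5.8e-06). The sets did not overlap for either gene, which was a condition of the ranking of largest rises in which both stand. Over all 12664 genes tested 2400 were higher without overlap and 3526 lower.

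Smaller members of the same list rose as well. CNP, the gene of a phosphodiesterase of non-compact myelin, was at 1077, 952 and 838 against 109, 66.8 and 63.6 CPM (3.68, SE 0.14), PPP1R14A, a phosphatase inhibitor gene, at 362, 639 and 659 against 14.5, 26.1 and 20.8 (4.82, SE 0.14), and GPR37, a receptor gene of the lineage, at 17, 63.2 and 55.9 against 3, 1.58 and 0.955 (5.15, SE 0.36). SIRT2, a deacetylase found in myelin, rose by 2.33 (SE 0.12). The 4 genes that fell were TSPAN2 (-2.23), OMG (-1.90), CRYAB (-1.61) and ANLN (-1.45), and of these ANLN also acts in cell division. The fall of CRYAB, a small heat shock protein gene, was -0.72 without D45 replicate B and no longer passed (adjusted p = 0.375), nor did it with DESeq2 (-1.22, adjusted p = 0.107) or without the library block (-1.50, adjusted p = 0.213). The fall of ANLN did not pass when each cell was thinned to 2000 UMIs.

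Genes that follow commitment were divided. Of 13 tested genes of premyelinating and newly committed cells 8 rose and 2 fell. BCAS1 was at 2590.2, 3157 and 3427 against 239.5, 1338 and 1102 CPM (2.11, SE 0.36) and ENPP6, a choline phosphodiesterase of newly formed oligodendrocytes, at 428, 269 and 236 against 60, 18.8 and 9.39 CPM (3.82, SE 0.29). TCF7L2, a Wnt effector that times differentiation, was at 1842, 1268 and 1005 against 491, 446 and 391 (1.64, SE 0.12), and FYN, a kinase that links axon contact to myelination, at 2802, 1759 and 2007 against 772, 876 and 767 (1.47, SE 0.15). These 4 genes did not overlap between the sets. GPR17 did, at 848, 274 and 417 CPM in MAG-positive and 539, 624 and 626 in MAG-negative cells: it was higher in MAG-positive cells of D28 replicate B and lower in those of both D45 libraries. Its log2 fold change of -0.35 (SE 0.29) did not pass (adjusted p = 0.356), and it was 0.07 without D45 replicate A and -0.77 without D28 replicate B, where it passed (adjusted p = 1.3e-04). It also passed after thinning to 2000 UMIs (-0.68, adjusted p = 1.3e-04) and without a filter on low counts (-0.34, adjusted p = 0.0138). ITPR2, a calcium channel gene, fell by 0.89 (SE 0.10). BMP4, a ligand that holds back differentiation, fell by 1.11 (SE 0.13).

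Precursor genes fell within the lineage, with exceptions. Only the MAG-negative definition required OLIG1 or OLIG2, so a fall of genes that go with these follows in part from the selection. Of 15 genes tested 12 fell and 3 rose, with a median of -1.58. PDGFRA was at 33.9, 8.27 and 12.3 CPM in MAG-positive and 240.5, 373 and 282 in MAG-negative cells (-4.63, SE 0.35, adjusted p = 3.1e-05). CSPG4, the NG2 proteoglycan gene of precursors, was at 0, 0.661 and 1.25 against 10.5, 20.1 and 15.1 CPM (-4.19, SE 0.37), and CCND1, the cyclin of cell cycle entry, at 17, 12.6 and 14 against 210.5, 223 and 201 (-3.90, SE 0.14). For all 3 the MAG-positive cells lay below the MAG-negative cells in every library. Markers of some other cell types fell too: 7 of 9 astrocyte, 7 of 9 floor plate and radial glia and 4 of 6 fibroblast genes. Of neuron genes 3 of 12 fell and of ependymal genes 0 of 4, beside 25.7% of all genes tested. The floor plate and radial glia markers summed to 541, 637 and 964 CPM in MAG-positive and 4638, 3163 and 3277 CPM in MAG-negative cells.

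The 3 exceptions were TNR, SEMA5A and SOX6. TNR, a matrix glycoprotein gene, was at 1749, 951 and 976 against 124, 471 and 256 CPM (2.23, SE 0.44), and SEMA5A, a guidance protein gene, at 328, 479.5 and 439 against 56, 148 and 114 (2.06, SE 0.16). SOX6, a transcription factor that keeps precursors undifferentiated, was at 3345, 2471 and 2516 against 2188, 2249.6 and 2354 CPM, a rise of 0.33 (SE 0.12). The SOX6 call was lost without D45 replicate A (0.41, adjusted p = 0.0722) or B (0.44, adjusted p = 0.144), and also with DESeq2, after thinning, with MAG at 2 or more or MBP at 5 or more UMIs and without the library block (0.24 to 0.35, adjusted p = 0.051 to 0.117).

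All 9 cell cycle genes fell, with a median of -3.98. TOP2A, a topoisomerase of dividing cells, was at 2.12, 4.79 and 7.95 CPM in MAG-positive and 454, 249 and 276 in MAG-negative cells (-5.46, SE 0.22), and CENPF, a kinetochore gene, at 6.36, 7.11 and 1.67 against 392, 292 and 294 (-5.95, SE 0.31). KIF14, a kinesin of cell division, showed one of the 10 largest falls, at 0, 0.331 and 0 against 28.5, 17 and 21.8 CPM. PCNA, which acts in DNA replication, fell by 2.46 (SE 0.18). Every MAG-positive value of TOP2A, CENPF and KIF14 lay below every MAG-negative value, which for CENPF and KIF14 was a condition of their place among the 10 largest falls.

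Transcription factors of the lineage moved in both directions, 6 of 11 higher and 4 lower. ST18, a zinc finger factor, was at 95.4, 345 and 364 CPM against 2.5, 0.988 and 1.91 (7.58, SE 0.32, adjusted p = 3.1e-06), although other cells of the organoid also held it at 38, 39.8 and 33.7 CPM. ZNF488 was at 131, 164 and 162 against 2.5, 13.2 and 7.16 CPM (4.26, SE 0.24), and NKX6-2, a homeobox factor of myelinating cells, at 6.36, 18 and 23.4 against 4, 2.77 and 3.02 (2.66, SE 0.32). SOX9, a factor of glial progenitors, was at 0, 4.46 and 5.65 against 193, 81 and 69.7 CPM (-4.04, SE 0.28). NKX2-2, which acts when precursors differentiate, was at 216, 109 and 143 against 180.0, 177 and 136 CPM and did not pass (-0.10, SE 0.18, adjusted p = 0.666), and its sets overlapped. HOXD1, a homeobox gene outside the lists, showed one of the 10 largest rises, at 6.36, 38.2 and 34.3 CPM against 0, 0 and 0.159.

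Receptors moved in both directions. Of 17 tested 5 rose and 8 fell. The 8 include ERBB3, a neuregulin receptor, at 909, 1106 and 1474 CPM in MAG-positive and 1407, 1858 and 2369 CPM in MAG-negative cells (-0.63, SE 0.09). In other cells it stood at 835, 1136 and 1601 CPM. Its count is taken as uncertain, which was not tested. FGFR2, a fibroblast growth factor receptor, was at 303, 875 and 791 CPM in MAG-positive and 16, 69.9 and 38.2 in MAG-negative cells (4.11, SE 0.17), LPAR1, a receptor for lysophosphatidic acid, at 362, 471 and 392 against 31, 26.7 and 23.9 (4.01, SE 0.15), and RXRG, a nuclear receptor, at 17, 70.8 and 55.7 against 7, 6.52 and 4.93 (3.29, SE 0.27). NTRK2, the BDNF receptor, went the other way, at 161, 257 and 424 against 964, 1874 and 1678 CPM (-2.41, SE 0.17). THRA, a thyroid hormone receptor, rose by 0.77 (SE 0.10). Of 9 Notch genes 5 fell and 2 rose, beside 25.7% lower and 19.6% higher of all genes tested. HES5, a Notch target, was at 0, 2.31 and 1.67 against 3.5, 23.1 and 11.3 CPM (-3.04, SE 0.30). NUMB, an inhibitor of Notch, rose by 0.64 (SE 0.11). It missed the threshold without D45 replicate B (0.64, adjusted p = 0.062) and after thinning to 2000 UMIs (0.35, adjusted p = 0.204).

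Adhesion genes were also split, with 5 of 14 higher and 7 lower. NFASC was at 3249, 3039 and 2558 CPM in MAG-positive and 204, 295 and 236 in MAG-negative cells (3.64, SE 0.14), SEMA4D, a semaphorin gene, at 312, 536 and 499 against 33, 53.9 and 38.5 (3.50, SE 0.14), and RTN4, which encodes the axon growth inhibitor Nogo, at 1475, 1919.8 and 1853 against 284, 276 and 252 (2.75, SE 0.13). CADM4, the partner on the glial side for adhesion to axons, rose by 1.44 (SE 0.10), whereas its relative CADM1 fell by 2.32 (SE 0.20). CNTN1, an adhesion protein that binds NFASC, was at 72.1, 566 and 524 against 828, 1473 and 1374 CPM (-1.80, SE 0.33), lower in MAG-positive cells of every library. This call was lost without the library block (adjusted p = 0.0731).

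Of the metabolic groups, most cholesterol genes did not pass. Of 21 tested, 2 rose, 2 fell and 17 did not pass, with a median of -0.11. EBP, a sterol isomerase gene, fell by 1.06 (SE 0.13). INSIG1, a brake on sterol synthesis, rose by 0.50 (SE 0.16) and SQLE had a log2 fold change of -0.50 (SE 0.10). Neither passed without D45 replicate A (0.70 and -0.45, adjusted p = 0.0982 and 0.1) or without D45 replicate B (0.53 and -0.46, adjusted p = 0.237 and 0.13). INSIG1 was also lost with DESeq2, after thinning and without the library block (adjusted p = 0.118, 0.452 and 0.0527), and SQLE after thinning (adjusted p = 0.176). Of 19 fatty acid and sphingolipid genes 8 rose and 5 fell, beside 19.6% higher and 25.7% lower of all genes tested, so the falls were near that share. UGT8 was at 731, 1217 and 1065 against 85, 122 and 121 CPM (3.25, SE 0.11), GAL3ST1 at 197, 110.3 and 119.5 against 68, 49.6 and 46.8 (1.38, SE 0.11) and ELOVL1, which elongates very long fatty acids, at 23.3, 74.7 and 67.6 against 24, 20.5 and 20.5 (1.64, SE 0.23). FA2H rose by 1.00 (SE 0.17), and by 0.95 without D45 replicate B, where it no longer passed (adjusted p = 0.0648). Nor did it pass after thinning to 2000 UMIs (0.92, adjusted p = 0.0773).

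Of 9 genes of iron handling, metabolite supply and pH 5 rose and 3 fell. FTL, the light chain of the iron store ferritin, was at 7423, 11029 and 11757 CPM in MAG-positive cells, 2451, 2458 and 2498 in MAG-negative lineage cells and 1592, 2946 and 3561 in other cells (2.06, SE 0.14 within the lineage). QDPR, which recycles a cofactor of amino acid hydroxylases, was at 1094, 1246 and 1229 against 284, 280.3 and 276 CPM (2.14, SE 0.11), and CA14, a carbonic anhydrase gene, at 157, 254 and 269.7 against 25.5, 2.37 and 5.25 (5.02, SE 0.57). Every MAG-positive value of these 3 genes lay above every MAG-negative value. TFRC, the receptor for iron uptake, fell by 0.90 (SE 0.13). SLC16A1, a lactate transporter of oligodendrocytes, fell by 0.42 (SE 0.11), but not past the threshold without D45 replicate A (-0.38, adjusted p = 0.227) or B (-0.33, adjusted p = 0.31). Nor did it pass with DESeq2 (-0.38, adjusted p = 0.161).

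**Figure D3:**
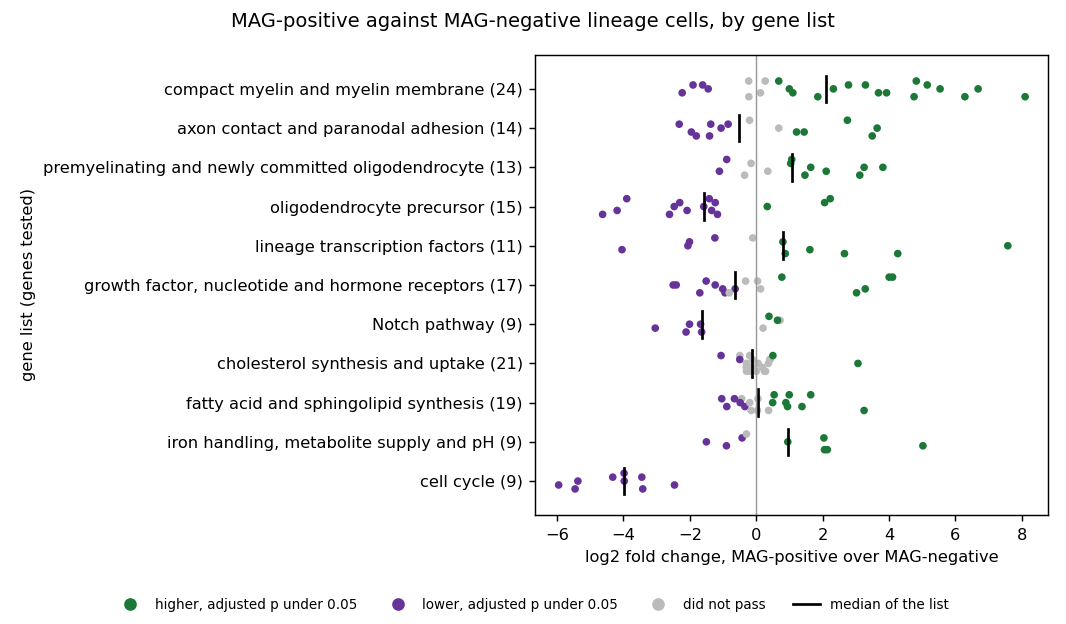
Log2 fold change of MAG-positive over MAG-negative lineage cells (horizontal axis) for the tested genes of 11 lists (rows, with the number tested), 1 point per gene. Green and purple points passed an adjusted p of 0.05, grey points did not, and the bars mark the medians, which run from 2.09 for compact myelin to -3.98 for the cell cycle.

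MAG-positive cells were not alike in MOG. On D45, 121, 171 and 139 cells of replicate A and 112, 156 and 128 cells of replicate B held 0, 1 to 4 and 5 or more MOG UMIs. Their median depths were 12994, 13324 and 14989 UMIs in replicate A and 11863, 10976.5 and 12426 in replicate B, so cells with the most MOG were also the deepest. The levels that follow are a description without a test, because the cells were divided by a measured gene and share their library.

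GPR17, BCAS1, NKX2-2 and TNR were lower where MOG was higher. GPR17 was at 608, 252 and 70.8 CPM in cells of D45 replicate A with 0, 1 to 4 and 5 or more MOG UMIs, and at 958, 323 and 103 CPM in replicate B. BCAS1 was at 4373, 3327 and 2169.9 CPM and at 5033, 3604 and 2056 CPM, NKX2-2 at 160, 140 and 42.9 and at 238, 156 and 60.2, and TNR at 1183, 1068 and 677 and at 1299.7, 1152 and 562 CPM. The order was the same in both libraries for all 4 genes. OLIG1, which the rule used, was at 98.9, 36.5 and 20.4 CPM in replicate A and 131, 37.5 and 26.7 CPM in replicate B.

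CLDN11, ST18, ENPP2, FTL and ENPP6 were higher where MOG was higher. CLDN11 was at 1433, 2352 and 3827 CPM in the same order in replicate A and 898, 2336 and 3435 CPM in replicate B. ST18 was at 33.6, 214 and 686 CPM and at 64.7, 200.5 and 745 CPM, and ENPP2, which encodes the enzyme autotaxin, at 111, 239 and 585 CPM and at 103, 215 and 591 CPM. FTL was at 6915, 10626 and 14195 CPM and at 6229, 10990.7 and 16624 CPM. ENPP6 was at 136, 254 and 373 CPM and at 114, 209 and 355 CPM, so this gene of newly formed cells moved with MOG and not with GPR17. PLLP did not follow this order: it was at 50.1, 36.1 and 188 CPM and at 45.7, 41 and 157 CPM, lowest in the middle class of both libraries. A pair of genes followed an order in replicate B and not in replicate A: NFASC was at 2512, 3219 and 3212 CPM and at 1941, 2678 and 2901 CPM, and TCF7L2 at 1333, 1462 and 1029 CPM and at 1139, 1105 and 809 CPM. MOG and GPR17 were found together in 44.5 and 43.9% of the MAG-positive cells of D45 replicates A and B, and in 9 of the 45 of D28 replicate B.

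**Figure D4:**
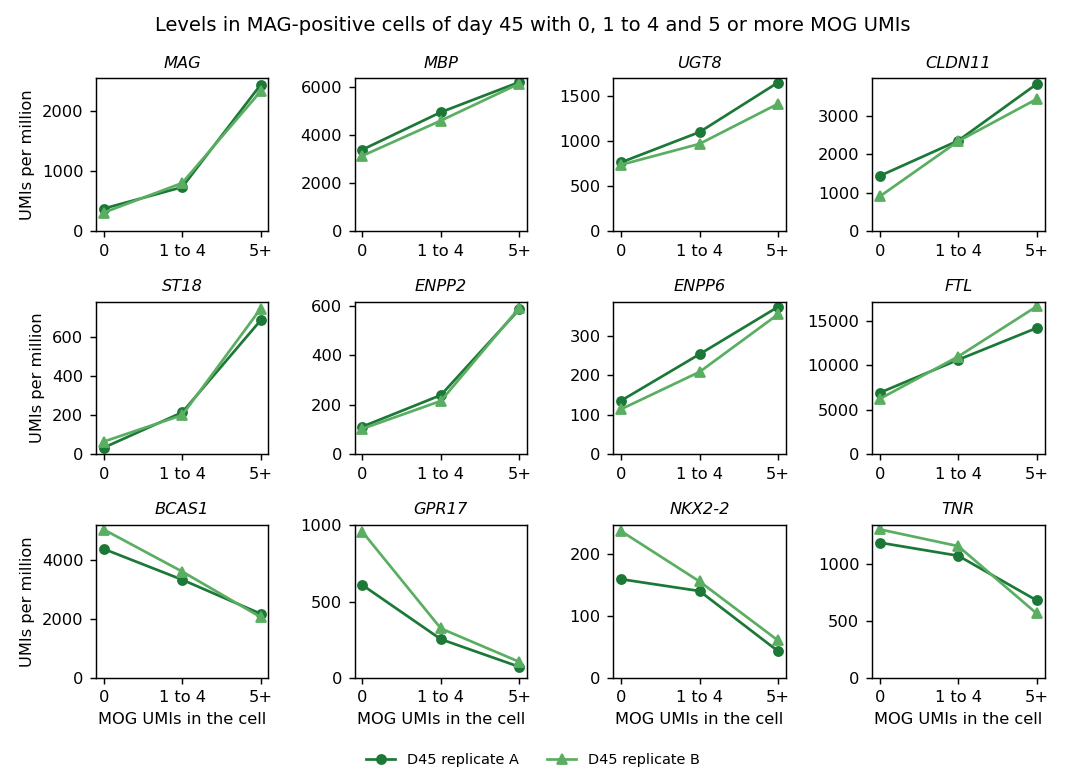
Level of 12 genes (vertical axes, CPM) in the MAG-positive cells of D45 replicate A (circles) and B (triangles) with 0, 1 to 4 and 5 or more MOG UMIs (horizontal axes). MAG, MBP, UGT8, CLDN11, ST18, ENPP2, ENPP6 and FTL rise along the MOG classes and BCAS1, GPR17, NKX2-2 and TNR fall in both libraries, shown without a test.

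The third comparison set the MAG-positive cells of D45 against those of D28. D28 was represented by 45 cells of replicate B, with 471783 UMIs, against 6048052 and 4779328 UMIs in the D45 libraries, so the day and this 1 library cannot be told apart. The makeup by MOG also differed: 34 of these 45 cells held 0 MOG UMIs, against 121 of 431 and 112 of 396 on D45. In such cells ST18 was at 73.5 CPM on D28 and 33.6 and 64.7 on D45, ENPP2 at 90.4, 111 and 103 and GPR17 at 899, 608 and 958. PLLP, at 8.48, 50.1 and 45.7, and LUZP2, at 410, 98.3 and 131, kept their order of days. The part of this makeup in the differences between days was not tested. The lone D28 library was taken to vary like the D45 libraries, and the sums of other cells shared in the estimate of the spread. Of 19005 genes tested 104 were higher on D45 (0.547%) and 18 lower (0.0947%), and of these 15 and 0 rested on 3 or fewer UMIs on D28. The split between higher and lower calls depended on the scaling, with 85.2% of the calls higher here, 73.5% with the size factors of DESeq2 in edgeR and 64.7% with DESeq2. The median over all genes was 0.47, or 0.34 with those size factors and 0.03 with DESeq2, and -0.25 when genes at 0 in a group were set to their bound. The direction of every gene named in this comparison was the same under all alternatives that gave a result for it. Only MOG, CNTN1, LUZP2 and NREP passed the threshold under each alternative.

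Of 28 tested genes of compact myelin and the myelin membrane 5 were higher on D45 and 0 lower, by a test whose D28 arm is 1 library. MOG was at 42.4 CPM on D28 and 361 and 374 on D45 (log2 fold change 3.35, SE 0.24, adjusted p = 0.00824), from 20 UMIs on D28. PLLP, a proteolipid of myelin, was at 8.48 CPM on D28 and 96.4 and 85 on D45 (3.66, SE 0.42, adjusted p = 0.0208), from 4 UMIs on D28, TMEM125 at 10.6 CPM on D28 and 52.6 and 55.7 on D45 (2.59, SE 0.38), from 5 UMIs, and PMP22 at 67.8 CPM on D28 and 210.3 and 176 on D45 (1.75, SE 0.27). Both D45 libraries lay above the D28 library for each of the 4. Over all 19005 genes tested they lay above it for 8857 and below it for 6479, so this order is common. With ENPP2, at 106 CPM on D28 and 336 and 323 on D45 (1.87, SE 0.20), these were the 5 genes.

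Single genes of other lists rose with them. CNTN1 was at 72.1 CPM on D28 and 566 and 524 on D45 (3.16, SE 0.21, adjusted p = 0.00824) and was the 1 gene of 14 for axon contact that rose. ST18 was at 95.4 CPM on D28 and 345 and 364 on D45 (2.13, SE 0.20, adjusted p = 0.0142), the 1 of 11 transcription factors, and FGFR2 at 303 CPM on D28 and 875 and 791 on D45 (1.70, SE 0.21), the 1 of 18 receptors. FGFR2 was also higher on D45 in other cells, at 33.2, 91.5 and 107 CPM. So was CNTN1, at 104.5, 293.5 and 287.9 CPM in other cells and 828.5, 1473 and 1374 CPM in MAG-negative lineage cells. GLUL, glutamine synthetase, was at 165 CPM on D28 and 538 and 466 on D45 (1.84, SE 0.28, adjusted p = 0.0454). In each case the D45 libraries lay close together and above D28, an order that is common over all genes, as given above.

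LUZP2, a leucine zipper gene expressed in precursors, fell from 411 CPM on D28 to 64.5 and 85.4 on D45 (-2.22, SE 0.20, adjusted p = 0.0142), and was the 1 of 15 precursor genes that changed. NREP, a neuronal regeneration protein gene, was at 1607 CPM on D28 and 374 and 358 on D45 (-1.90, SE 0.16, adjusted p = 0.0115), and SFRP1, a secreted inhibitor of Wnt signals, at 349.7 CPM on D28 and 114 and 131 on D45 (-1.27, SE 0.17). DACH1, a transcriptional regulator, was at 680.4 CPM on D28 and 162 and 149 on D45 (-1.89, SE 0.23), TRIB2 at 182 CPM on D28 and 35.2 and 38.1 on D45 (-2.08, SE 0.21) and LPAR4, a lysophosphatidic acid receptor, at 80.5 CPM on D28 and 12.2 and 15.5 on D45 (-2.31, SE 0.33). All 6 passed the test. GPR17 was at 848 CPM on D28 and 274 and 417 on D45 and did not pass (-1.06, SE 0.24, adjusted p = 0.113), although it passed with DESeq2 (-1.19, adjusted p = 0.00315) and with a block on the replicate letters (-0.93, adjusted p = 0.000305). ENPP6, at 428 CPM on D28 and 269 and 236 on D45, did not pass (-0.52, SE 0.23), although it passed with a block on the replicate letters (-0.69).

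Several rises rested on few D28 molecules. EDIL3, a matrix protein gene, had 1 UMI on D28 and a mean of 108 CPM on D45, a ratio of 50.8 with a counting interval of 9.12 to 2008. SGIP1, an endocytosis gene, had 3 UMIs on D28, a ratio of 34.2 (11.7 to 166). STMN4, of the stathmin family, was at 8.48 CPM on D28 and 210.2 and 186 on D45 (4.78, SE 0.34), from 4 UMIs on D28. TPCN1, an ion channel gene, had 0 UMIs on D28 and was at 66.5 and 55.5 CPM on D45, at least 9.59-fold above the level of 3 UMIs in the D28 cells. Among markers of other cells, AQP4 and GFAP of astrocytes were at 0 in the MAG-positive cells of D28 and at 0 to 13.2 and 0 to 14.9 CPM over the 3 libraries, and in other cells they stood at 0.952, 68.1 and 90.3 and 3.95, 96.6 and 112 CPM. The 10 astrocyte markers together summed to 210, 222 and 278 CPM in MAG-positive cells and to 221, 1436 and 1729 CPM in other cells, and their part in these differences between days was not tested.

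**Figure D5:**
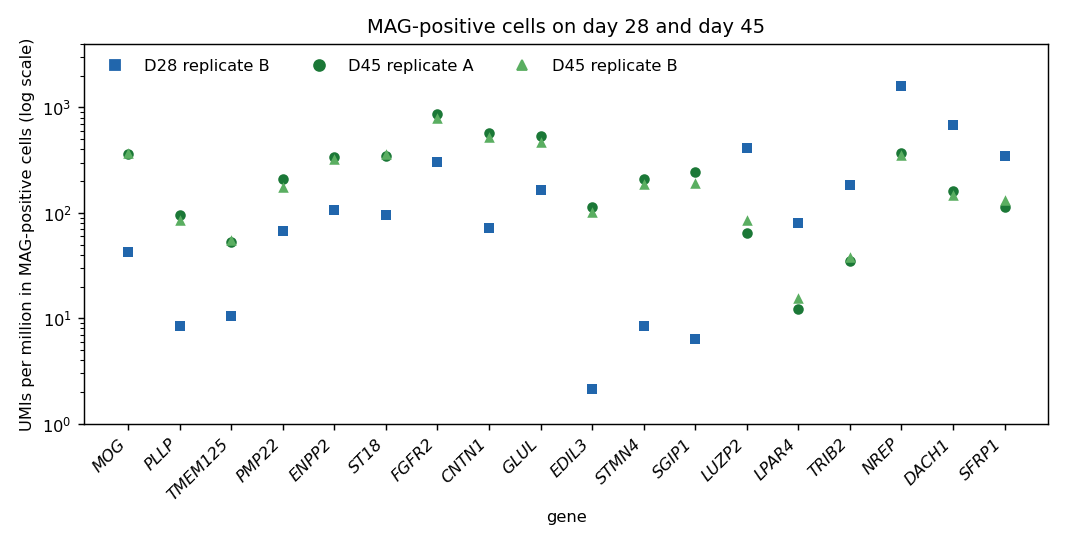
Level of 18 genes (vertical axis, CPM on a log scale) in the MAG-positive cells of D28 replicate B (blue squares), D45 replicate A (dark circles) and D45 replicate B (light triangles), with no error bars since each point is 1 library. From MOG to SGIP1 the D45 points lie above D28 and from LUZP2 to SFRP1 below, and the D45 points of a gene lie close together. Over all 19005 genes tested both D45 libraries lay above D28 for 8857 and below it for 6479.

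The last comparison asked whether a change between days in MAG-positive cells differed from the change in other cells of the same libraries. The difference was positive past the threshold for 525 of 19005 genes (2.76%) and negative for 243 (1.28%), and 68.4% of these calls were positive, against 47.7% with the size factors of DESeq2 in edgeR and 33.7% with DESeq2. This comparison shares its MAG-positive sums with the one between days. Other cells included the MAG-negative lineage cells, which numbered 153 in D28 replicate B and 370 and 487 in the D45 libraries. Of 13 premyelinating genes the difference was negative for 8 and positive for 3, of 15 precursor genes negative for 8 and positive for 0, and of 28 myelin genes negative for 9 and positive for 4. ST18 was in other cells at 38, 39.8 and 33.7 CPM, and its difference between the changes was 2.16 (SE 0.23) on the log2 scale (adjusted p = 5.2e-07). ENPP2 was at 19.3, 23.9 and 19.7 CPM in other cells (difference 1.68, SE 0.23), GLUL at 151, 116 and 158 (1.98, SE 0.25) and LUZP2 at 85.6, 166 and 155 (-3.16, SE 0.21), all past the threshold. The difference did not pass for FGFR2 (0.10, SE 0.20, adjusted p = 0.926), PMP22 (1.00, SE 0.31, adjusted p = 0.064, although it passed with MAG at 2 or more UMIs, adjusted p = 0.0132, and with all other barcodes, adjusted p = 0.00672) or TMEM125 (-2.68, SE 1.09, adjusted p = 0.212).

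For MOG the difference was not established. In D28 replicate B and D45 replicates A and B, other cells included 5, 122 and 97 that missed on STMN2 alone. These held MOG at 107, 289 and 349 CPM, and their part in the MOG level of other cells was not tested. MOG also stood higher on D45 in other cells, at 0.334, 7.42 and 6.08 CPM, and the difference of -0.99 (SE 0.41) did not pass (adjusted p = 0.213). It was positive, at 1.23, when cells with a MAG or SOX10 UMI were left out of the other cells (a choice made after seeing the data), and 0.69 when each cell was thinned to 2000 UMIs. GPR17 was at 14.2, 54.7 and 52.9 CPM in other cells and 848, 274 and 417 in MAG-positive cells, and its difference of -3.03 (SE 0.20) passed the threshold. GPR17 was higher on D45 in other cells and lower in MAG-positive cells, where the fall did not pass the main test between days. MAG-positive cells with 0 MOG UMIs held it at 899, 608 and 958 CPM. The MAG-negative lineage cells among the other cells held it at 539, 624 and 626 CPM. They numbered 153, 370 and 487 in the same libraries. The part of their number and of the makeup by MOG in the GPR17 difference was not tested.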

How the data were processed

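Single-cell 3′ libraries from 2 samples on each of D11, D28 and D45 were deposited as gene by barcode tables of UMI counts. Per the file headers the authors made these counts with Cell Ranger 8.0.1, and the submitters' processing notes name Seurat 4.3.0 and Sscrofa11.1. The counts are not normalized, and the tables hold 30477 genes, of which 16266 carry a symbol and 844 more were named from the reference table.

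The rule was applied to raw counts with no further cell filter. Doublets were scored per library with Scrublet in scanpy 1.11.5 (expected rate 0.4% per 1000 cells) and kept, and cells over 10% mitochondrial UMIs (13 genes) were kept. Both were left out in alternatives. UMIs were summed per library and cell set over the 3 libraries with at least 10 MAG-positive cells, which held 471783 to 6048052 UMIs in these cells. The sums were tested with edgeR 4.0.16 in R 4.3.3 (TMM, filterByExpr, quasi-likelihood test, Benjamini-Hochberg adjusted p under 0.05), with library as a block except between days. MAG-positive and compared cells of a block come from 1 library, so the pairing is by construction. The 6 genes of the rule entered library sizes and were not tested. CPM are UMIs of a gene divided by all UMIs of the cell set, and since 3′ tags are counted, levels of different genes were not compared. D28 replicate A had no MAG-positive cells and entered the shares only. Shares have exact binomial 95% intervals, which like the limit of 3 counts for a count of 0 cover counting error only. Libraries of a day are described as biological duplicates, but nothing used here names separate differentiations, so p-values measure the spread between these libraries, which may be technical.

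Named genes are list members, plus the top 10 in each direction by log2 fold change per comparison among genes past the threshold that have a symbol, reach 20 CPM and do not overlap between sets. The cells and lists were chosen with earlier results of these data known. Alternatives were DESeq2 1.42.0, its size factors, no filter on low counts, MAG at 2 or more UMIs, MBP at 5 or more, thinning to 2000 UMIs, all other barcodes, the block, and each library left out. One more, other cells without a MAG or SOX10 UMI, was chosen after seeing the data. Results for some genes are not reported here, but genes with uncertain counts stay in the counts of their lists. The edgeR fits alone were also run on simulated sums in which chosen genes were changed by a set amount. Those sums had the same spread for every gene and no library effect beyond size, unlike real libraries. The rule, the thinning, the doublet calls and the test of shares were not covered.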

Additional observations from a re-analysis of the deposited data

Results flagged for a closer look

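The change from D28 to D45 in MAG-positive cells differed from the change in other cells of the same libraries, by the interaction term of edgeR, for 16 of the 20 genes named in the comparison between days that had UMIs on D28, and for 4.04% of all genes tested. Most of the 20 were named for their change between days in the same MAG-positive sums, so their count is set in part by that choice and nothing is read from it. The difference did not pass for MOG, FGFR2, TMEM125 and PMP22, and TPCN1, at 0 UMIs on D28, was left out. The difference of the log2 changes was positive for EDIL3 (5.69), SGIP1 (4.96), STMN4 (4.64), ST18 (2.16), PLLP (2.02), GLUL (1.98), ENPP2 (1.68), CNTN1 (1.66) and ENPP6 (1.07). It was negative for LUZP2 (-3.16), LPAR4 (-3.11), GPR17 (-3.03), SFRP1 (-1.83), TRIB2 (-1.40), DACH1 (-1.11) and NREP (-0.87). The differences of PLLP, ENPP6, ENPP2, DACH1 and TRIB2 did not pass under every alternative. That of PLLP was lost with DESeq2 (1.83, adjusted p = 0.592), its size factors (1.83, adjusted p = 0.0847), MBP at 5 or more UMIs (adjusted p = 0.0861), called doublets left out (adjusted p = 0.0503), no filter on low counts (adjusted p = 0.0799) and thinning (1.51, adjusted p = 0.995). That of ENPP6 was lost with DESeq2 (0.88, adjusted p = 0.0812) and after thinning (0.77, adjusted p = 0.518), and those of ENPP2, DACH1 and TRIB2 after thinning (1.31, -0.88 and -1.02, adjusted p = 0.158, 0.0669 and 0.652). All of these differences rest on D28 replicate B alone for D28, and EDIL3 had 1 UMI, PLLP and STMN4 had 4 UMIs each and SGIP1 had 3 UMIs there. The median difference over all genes tested was 0.53, against 0.34 with the size factors of DESeq2 and -0.06 with DESeq2.

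Barcodes under 2000 UMIs, which entered only some alternative settings and no main comparison, also met the other criteria, with 23 in D45 replicate A and 19 in D45 replicate B, against 0 in D28 replicate B.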

How the results depend on the processing

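Of 30 named genes past the threshold between MAG-positive and other cells 29 stayed past it under every alternative that tested them, MAL being lost without the library block (adjusted p = 0.0544). Against MAG-negative lineage cells 60 of 70 did so. Some genes had no result under an alternative, mostly after thinning, and such a case is not counted as a loss. Between days only MOG, CNTN1, LUZP2 and NREP stayed past the threshold, and the genes lost for the difference between changes are named above. Leaving out 1 library in turn gave 1584 to 4460 genes higher and 3243 to 5823 lower in MAG-positive than in other cells, and 1114 to 3444 higher and 1613 to 3616 lower against MAG-negative lineage cells, with the low counts without a D45 library and the high ones without D28 replicate B. Against MAG-negative lineage cells GPR17 ranged from -0.77 to 0.07 and NKX2-2 from -0.20 to 0.22, both turning positive without D45 replicate A. The comparison between days and the difference between changes could not be fitted with a library left out. The day difference in share was 3.35 to 3.90 percentage points with a library left out, and 1.81 to 3.63 under the other settings, with the lowest values after thinning (1.81) and with all barcodes as the denominator (1.94).

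Thinning to 2000 UMIs gave 1985 genes higher than in other cells, 1518 higher and 1643 lower than in MAG-negative lineage cells, 4 higher and 2 lower between days, and 76 positive and 99 negative differences between changes; fewer UMIs entered these sums. DESeq2 gave 1644 higher and 2136 lower against MAG-negative lineage cells, 196 higher and 107 lower between days and 106 positive differences. Its size factors in edgeR gave 50 higher between days, and 333 positive and 365 negative differences. With MAG at 2 or more UMIs 59 genes were higher between days, with MBP at 5 or more 49 were higher, 10 lower and 296 differences positive, and without a filter on low counts 46 were higher. The difference between changes of MOG was 0.69 after thinning and 1.23 with other cells without MAG or SOX10. That of FGFR2 was -0.10 with DESeq2 and with its size factors, -0.08 with MAG at 2 or more UMIs and -0.05 without a filter on low counts. The cause of these shifts was not tested. A replicate block on the letters A and B gave 762 genes higher and 147 lower between days, but only the letter B occurs on both days, and no source used here says what samples of a letter share, so it is not read as a pairing. Without the library block the counts were 2271 and 4031 against other cells and 1856 and 2384 against MAG-negative lineage cells. Without that block CNTN1 and LUZP2 no longer passed against MAG-negative lineage cells (adjusted p = 0.0731 and 0.0631). Depth limits the D28 values, where 3 UMIs are worth 6.359 CPM.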

Other observations

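The 14 position genes on the list summed to 8.48, 5.62 and 16.5 CPM in MAG-positive cells of D28 replicate B, D45 replicate A and D45 replicate B and to 154, 116 and 136 CPM in other cells, and 6 of them were at 0 in all MAG-positive cells. Of 9 tested against other cells 8 fell and 0 rose, against 28.2% and 16.9% of all genes tested. HOXD1, which is not on that list and was chosen after its values were seen, was higher in MAG-positive cells (6.36, 38.2 and 34.3 CPM) than in other cells (0.179, 1.11 and 0.692 CPM).

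Stress and interferon genes summed to 1382, 1258 and 1303 CPM in MAG-positive cells, 2148, 1595 and 1776 CPM in MAG-negative lineage cells and 3763, 2075 and 2175 CPM in other cells. Against other cells 6 of 11 fell and 0 rose, beside 28.2% of all genes lower and 16.9% higher. Against MAG-negative lineage cells 4 fell and 3 rose, beside 25.7% of all genes lower and 19.6% higher. The 8 immediate early genes summed to 180.2, 218 and 176 CPM in MAG-positive cells and to 402, 350 and 362 CPM in other cells, and 3 of 7 fell against 28.2% of all genes.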
